A study of Rattus norvegicus with 25 samples.

Results

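The 8 genes described here encode enzymes of cholesterol synthesis and a sterol sensor of that pathway, and were chosen by gene symbol: Hmgcs1, Sqle, Idi1, Fdps, Fdft1, Lss, Dhcr7 and Insig1. They were chosen with earlier results of these data known. All 8 were found among the 28909 gene names of the count table. RNA came from the striatum on the lesioned side of 25 female Sprague Dawley rats given 6-hydroxydopamine, a toxin that destroys dopamine neurons and is used to model Parkinson's disease. All animals had levodopa at 6 mg/kg once a day for 14 days, with benserazide per the study's title. There were 5 animals on levodopa alone, 10 with added trapidil at 7.5 mg/kg and 10 with added trapidil at 15 mg/kg, both given BID. Tissue was taken on day 15, and age was not given in the sources used here. Every arm therefore shared the lesion and the levodopa, and unlesioned, undosed or trapidil-only animals were not analysed here. Trapidil is a vasodilator and antiplatelet drug that also blocks signalling by PDGF. The p-values below measure the spread between these libraries, 1 per animal as the design text is read here.

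The brain makes nearly all of its own cholesterol, since lipoproteins of the blood do not cross its barrier, and much of that cholesterol lies in the myelin of oligodendrocytes and is also supplied by astrocytes. Synthesis runs from acetyl-CoA through mevalonate to isoprenoid diphosphates, then through squalene and lanosterol to cholesterol. When sterol in the endoplasmic reticulum is low, SREBP-2, a transcription factor encoded by Srebf2, is released and drives most of these genes together. Insig1 holds the SREBP escort Scap in place when sterol is plentiful, and its gene is itself an SREBP target.

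The 3 arms had total gene counts per library of 16535828 to 19274429 (levodopa), 10838513 to 18794463 (7.5 mg/kg) and 13862132 to 20532290 (15 mg/kg). Levodopa replicate 2 stood apart on the second principal component of all genes, at -54.0 against -10.6 to 16.7 in the other libraries. The 7.5 mg/kg replicate 1 had the lowest total. On the first component, 6 libraries lay between -42.5 and -19.8, namely levodopa replicates 1, 2, 3 and 5 with replicates 1 and 6 of the 7.5 mg/kg arm, and the others, including levodopa replicate 4, between -8.1 and 27.1. Reads in every library were found for 11 of 11 spiny projection neuron markers, a low bar that does not test the striatal label. The summed level of those markers was 9450 to 16800 CPM (read counts scaled to library size) with levodopa, 13200 to 16800 CPM at 7.5 mg/kg and 12600 to 16300 CPM at 15 mg/kg. The 9450 CPM was levodopa replicate 2, where the median of its arm was 15100 CPM.

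Promoter sequences are shown for the sterol sensor and for 3 enzymes whose levels differed in how they varied among animals, since shared promoter elements are how SREBP is known to act on these genes. RefSeq tables of the GRCr8 build held promoters for 6 of the 8 genes. The 250 bases before each annotated start are given 5′ to 3′, with capitals for the letters CCAAT (the box bound by NF-Y) and GGGCGG (the box bound by Sp1) on either strand. Both are known partners of SREBP.

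Insig1, chr4:8057770-8058019, minus strand: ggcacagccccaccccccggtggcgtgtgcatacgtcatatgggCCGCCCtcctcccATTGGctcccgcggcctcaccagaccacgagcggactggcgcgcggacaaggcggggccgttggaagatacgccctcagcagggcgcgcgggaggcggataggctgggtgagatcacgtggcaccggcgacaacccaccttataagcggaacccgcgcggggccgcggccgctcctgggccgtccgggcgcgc

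Hmgcs1, chr2:53382054-53382303, plus strand: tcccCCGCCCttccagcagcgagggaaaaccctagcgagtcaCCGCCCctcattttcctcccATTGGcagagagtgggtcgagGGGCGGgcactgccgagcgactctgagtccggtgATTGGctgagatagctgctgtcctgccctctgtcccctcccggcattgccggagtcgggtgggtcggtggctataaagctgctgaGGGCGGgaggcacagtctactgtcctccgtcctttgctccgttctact

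Idi1, chr17:66547525-66547774, minus strand: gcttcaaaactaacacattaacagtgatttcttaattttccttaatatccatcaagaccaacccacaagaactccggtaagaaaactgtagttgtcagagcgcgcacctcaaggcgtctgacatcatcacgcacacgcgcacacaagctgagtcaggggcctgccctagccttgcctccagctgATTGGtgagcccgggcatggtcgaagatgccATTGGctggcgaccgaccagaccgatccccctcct

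Fdps, chr2:176804817-176805066, minus strand: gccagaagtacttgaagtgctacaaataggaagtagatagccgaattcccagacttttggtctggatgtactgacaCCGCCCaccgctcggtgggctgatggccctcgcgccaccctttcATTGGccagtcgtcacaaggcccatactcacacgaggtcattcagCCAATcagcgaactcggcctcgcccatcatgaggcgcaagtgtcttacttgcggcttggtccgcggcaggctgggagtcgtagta

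A CCAAT box was found in 5 of the 6 promoters (83.3%), against 34.0% of 33469 promoters of the same length. Those 33469 were all promoters in the RefSeq tables, not only those of genes tested here. Insig1 had 1 such box, and Hmgcs1, Idi1 and Fdps had 2 each. A GGGCGG box was also found in 5 of 6, against 30.5% of all promoters. Hmgcs1 had 4 of these boxes, Fdps and Insig1 had 1 and Idi1 had 0. In Dhcr7 the pair of GGGCGG boxes overlapped each other. The letters TCACNCCAC, a core of the sterol element, were found on either strand in 0 of the 6 windows and in 0.974% of all promoters. The other enzymes of the pathway, with 12 promoters in the table, held a CCAAT box in 10 and a GGGCGG box in 10. These are matches of letters, not measured binding.

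Insig1 fell at 15 mg/kg, and it was the 1 member to pass the test in any comparison. Its level was 49.5, 55.9, 46.8, 40.3 and 50.5 CPM in levodopa replicates 1 to 5. It ran from 35.0 to 53.5 CPM at 7.5 mg/kg (median 41.3) and from 28 to 42.7 CPM at 15 mg/kg (median 37.5). In the 15 mg/kg arm 9 of 10 animals were below the lowest levodopa animal, replicate 4, and the arms overlapped through that 1 levodopa animal. The mean was 48.6 ± 5.71 CPM with levodopa alone (SD, n = 5). With trapidil it was 42.0 ± 5.93 CPM at the lower dose (SD, n = 10) and 37.1 ± 4.09 CPM at the higher (SD, n = 10). The log2 fold change at 15 mg/kg was -0.39 ± 0.09 (SE; edgeR adjusted p = 0.0377; 10 of 10 libraries below the mean of levodopa alone). At 7.5 mg/kg it was -0.21 ± 0.09 and did not pass (edgeR adjusted p = 0.391; 9 of 10 libraries lower). In such bulk tissue, fewer cells of a type and less RNA per cell cannot be told apart.

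The Insig1 call was close to the threshold. It was lost in 11 of the 15 fits that left out 1 library of the compared arms, with adjusted p from 0.0515 to 0.17. The libraries concerned were replicates 1, 2, 3 and 5 of levodopa alone, and replicates 2, 3, 5, 6, 8, 9 and 10 of the 15 mg/kg arm. The fold change itself stayed between -0.45 (without levodopa replicate 4) and -0.33 (without levodopa replicate 2). With levodopa replicate 2 and the 7.5 mg/kg replicate 1 both left out it was -0.33 (adjusted p = 0.0738). Within the 7.5 mg/kg arm, replicates 1 and 6, which lay with most levodopa animals on the first component, had the highest Insig1 levels, 53.5 and 47.5 CPM. Replicate 3 of that arm was close to replicate 6, at 47.2 CPM, but lay apart from those animals on the component, at -4.3. Levodopa replicate 4, which lay with the trapidil animals there, had the lowest of its arm. The part of that component in the result was not tested.

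**Figure D1:**
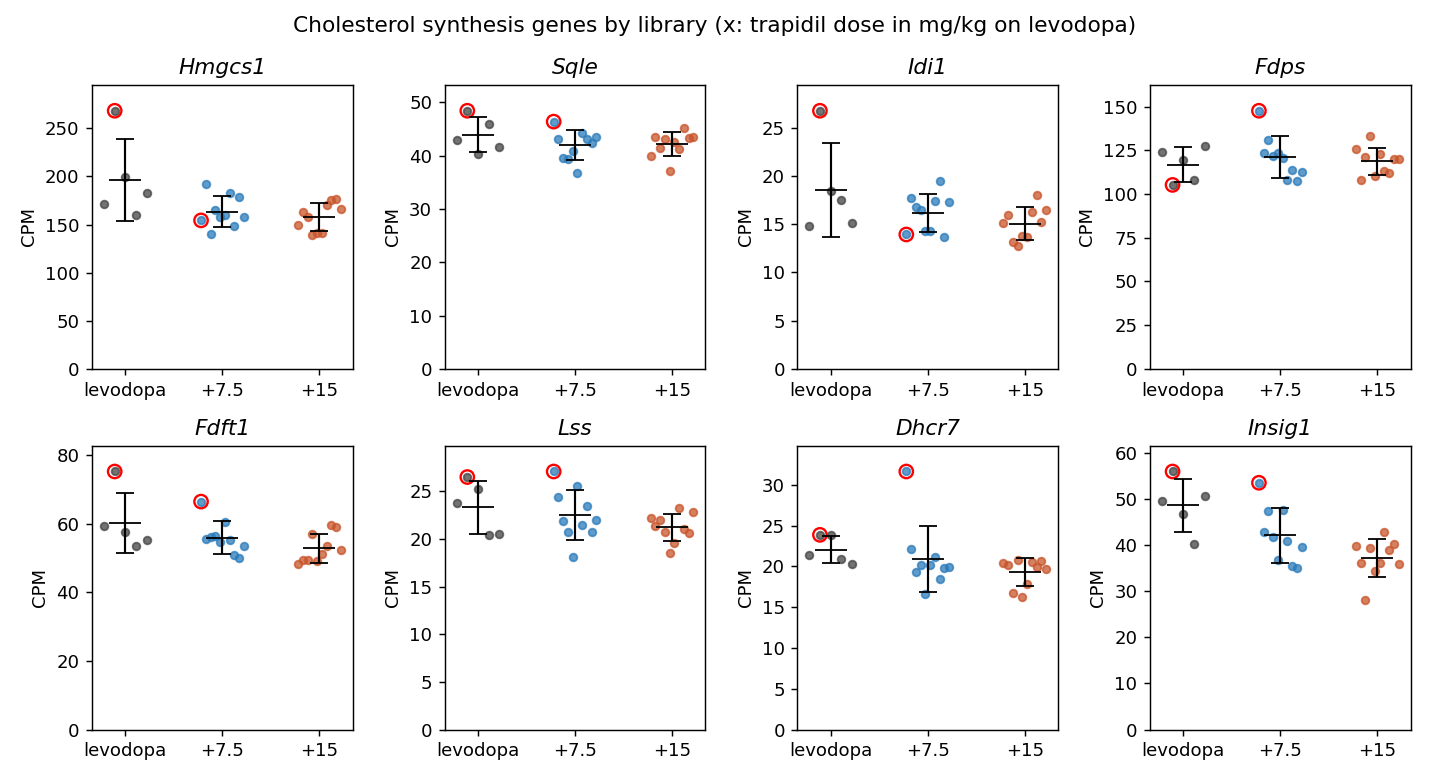
Level of each gene in CPM (y axis, from 0) in every library, by arm (x axis: levodopa alone, and with trapidil at 7.5 or 15 mg/kg); points are libraries, black bars are the mean ± SD, and red rings mark levodopa replicate 2 and the 7.5 mg/kg replicate 1. Insig1 has 9 of 10 animals at 15 mg/kg below the lowest levodopa animal, and levodopa replicate 2 is the highest of its arm in 7 of 8 genes.

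Among the enzymes of the mevalonate part, Hmgcs1 had values furthest from levodopa alone. Hmgcs1 encodes the cytosolic synthase that makes HMG-CoA. It was at 171.5, 268.2, 199.0, 160.1 and 182.4 CPM in levodopa replicates 1 to 5, from 140 to 192 CPM at 7.5 mg/kg (median 159) and from 139 to 177 CPM at 15 mg/kg (median 160). Levodopa replicate 2 was far above its arm, and the ranges of the arms overlapped. The log2 fold change was -0.26 ± 0.09 at 7.5 mg/kg (edgeR adjusted p = 0.297) and -0.31 ± 0.09 at 15 mg/kg (edgeR adjusted p = 0.0691), with 10 of 10 libraries below the levodopa mean at each dose. Without levodopa replicate 2 these became -0.12 and -0.17. Without levodopa replicate 4 the 15 mg/kg value was -0.38 and passed (edgeR adjusted p = 0.0242), as it did with DESeq2 at -0.31 (adjusted p = 0.0359).

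Idi1 encodes the isomerase that interconverts the 2 five-carbon isoprenoid diphosphates. Its levels were 14.8, 26.8, 18.4, 17.5 and 15.1 CPM in levodopa replicates 1 to 5, 13.7 to 19.5 CPM at 7.5 mg/kg and 12.7 to 18 CPM at 15 mg/kg. Levodopa replicate 2 again stood above all other animals. The log2 fold change was -0.19 ± 0.11 at 7.5 mg/kg and -0.30 ± 0.11 at 15 mg/kg, neither of which passed (edgeR adjusted p = 0.511 and 0.14). Without that animal the values were -0.02 and -0.13.

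Fdps, the synthase of farnesyl diphosphate, at which the sterol and other isoprenoid branches part, was the 1 member with a positive estimate at both doses, which turned to -0.03 at both with limma-voom and to -0.01 at 15 mg/kg without levodopa replicate 2. It was at 123.8, 105.2, 119.5, 107.8 and 127.6 CPM in levodopa replicates 1 to 5, from 108 to 148 CPM at 7.5 mg/kg and from 108 to 133 CPM at 15 mg/kg. Here levodopa replicate 2 was the lowest of its arm. The log2 fold changes were 0.05 ± 0.07 and 0.02 ± 0.07 (edgeR adjusted p = 0.79 and 0.884), with a 95% interval of -0.11 to 0.16 at 15 mg/kg. RefSeq names 5 pseudogene copies of Fdps and 1 of Idi1, so reads of these 2 genes could have been split or added in counting, and their values are uncertain to that extent.

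Of the squalene and sterol part of the pathway, Fdft1 encodes squalene synthase, the entry to the sterol branch. Its levels were 59.4, 75.1, 57.4, 53.5 and 55.3 CPM in levodopa replicates 1 to 5, with a median of 55.4 CPM at 7.5 mg/kg (49.9 to 66.4) and 51.7 CPM at 15 mg/kg (48.2 to 59.5). Below the lowest levodopa animal lay 7 of 10 animals at 15 mg/kg. The log2 fold change was -0.19 ± 0.07 (edgeR adjusted p = 0.154; 10 of 10 libraries lower), and -0.09 without levodopa replicate 2.

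Sqle, the epoxidase of squalene and a rate-limiting enzyme, had these levels in the arms: 43.9 ± 3.28 CPM for levodopa alone (SD, n = 5), then 41.9 ± 2.78 and 42.1 ± 2.28 CPM for the lower and higher dose (SD, n = 10 each). Its log2 fold change at 15 mg/kg was -0.06 ± 0.06, with a 95% interval of -0.17 to 0.05. Lss, which closes the sterol ring to give lanosterol, was at 23.3 ± 2.74, 22.5 ± 2.63 and 21.2 ± 1.45 CPM in the same order, a log2 fold change of -0.14 ± 0.08 at 15 mg/kg (95% interval -0.30 to 0.03). Dhcr7, the reductase of a last step to cholesterol, was at 22 ± 1.68, 20.9 ± 4.04 and 19.3 ± 1.70 CPM, a log2 fold change of -0.19 ± 0.10 (95% interval -0.39 to 0.01). None of these 3 passed at either dose with edgeR (adjusted p from 0.281 to 0.835).

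As a group, 7 of the 8 members had negative estimates at each dose, where 48.9% (7.5 mg/kg) and 49.8% (15 mg/kg) of all genes tested did. The median log2 fold change of the members was -0.09 at 7.5 mg/kg and -0.19 at 15 mg/kg, and that of all 14142 genes tested was 0 at both. Without levodopa replicate 2 the members' medians were -0.03 and -0.11, with 6 and 8 of the 8 negative. Without the 7.5 mg/kg replicate 1 the 7.5 mg/kg median was -0.15. The doses were compared with the same levodopa animals, so their signs are not independent. Nor are the 8 members independent of each other, since 25 of their 28 pairs had a positive r among animals of the same arm. The members were also chosen with earlier results of these data known. The shares in this paragraph are therefore a description and not a test of the group. At 7.5 mg/kg 0 of 8 members passed with edgeR, DESeq2 or limma-voom, and 0.0283% of all genes did with edgeR. At an unadjusted p below 0.05, 2 members were lower there, Hmgcs1 and Insig1, against 6.64% of all genes, and 0 were higher, against 5.02%. The arms' ranges overlapped for all 8 members in each comparison. Of all genes, 0.0636% lay apart and lower and 0.0283% apart and higher at 7.5 mg/kg. These shares were 0.410% and 0.297% at 15 mg/kg and 0% in both directions between the doses, so 0 of 8 members is near them. At 15 mg/kg 1 of 8 passed with edgeR, against 1.31% of all genes in either direction 1.00% in the lower one and 0.304% in the higher one. At an unadjusted p below 0.05, 4 members were lower (Hmgcs1, Idi1, Fdft1 and Insig1), against 11.2% of all genes, and 0 were higher, against 8.26%.

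Between the doses 0 of 8 members passed with edgeR, DESeq2 or limma-voom, against 0.0283% of all genes with edgeR. This comparison used no levodopa-only animal. Insig1 had the estimate furthest from 0, at -0.18 ± 0.08 (unadjusted p = 0.0304; edgeR adjusted p = 0.999; 9 of 10 libraries below the 7.5 mg/kg mean), the 1 member at an unadjusted p below 0.05, where 2.14% of all genes were lower. At that threshold 0 members were higher, against 1.49% of all genes. Its 95% interval was -0.33 to -0.02, and it was -0.13 without the 7.5 mg/kg replicate 1. The other 7 members had 95% intervals that contained 0, from -0.30 to 0.09 for Idi1 to -0.09 to 0.10 for Sqle.

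**Figure D2:**
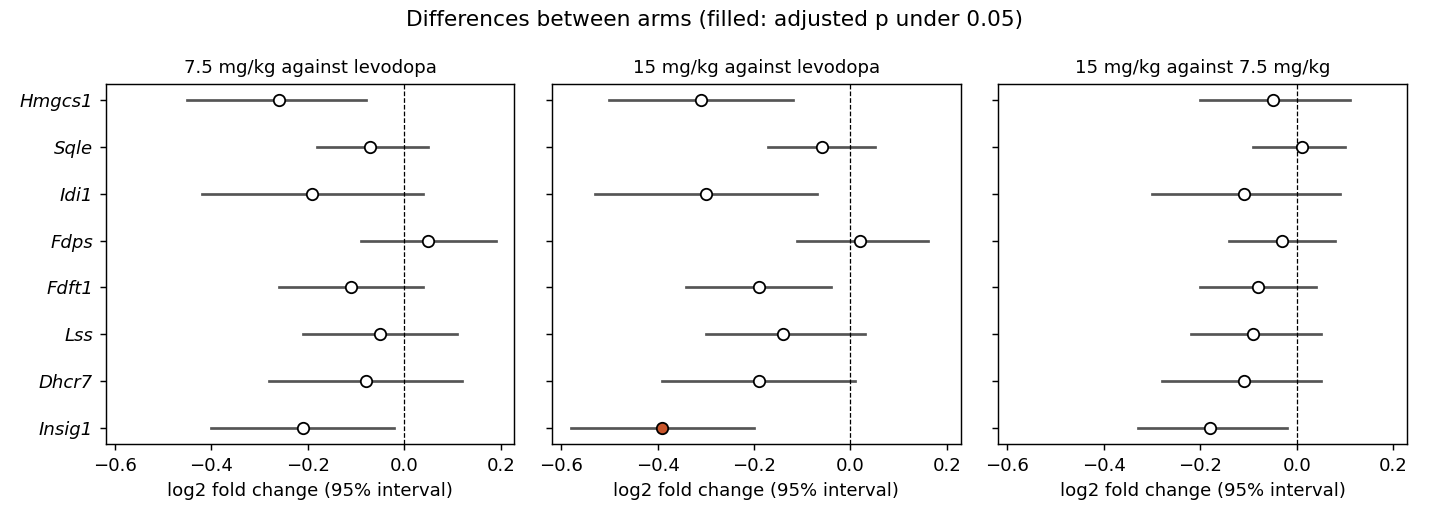
Log2 fold change (x axis) of each gene (y axis) with its 95% interval in the 3 comparisons between arms; filled points have an edgeR adjusted p below 0.05. Insig1 at 15 mg/kg against levodopa (-0.39) is the 1 filled point, and Fdps has estimates of 0.05 and 0.02 against levodopa.

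For the other enzymes of the pathway, of 17 names listed, 14 were in the table and tested. This list and those that follow were also chosen with earlier results of these data known. At 15 mg/kg 14 of 14 had negative estimates with a median of -0.15, 0 passed with edgeR, and 4 were lower at an unadjusted p below 0.05. Of all genes, 49.8% were negative there, 1.31% passed with edgeR in either direction and 11.2% were lower at that unadjusted threshold. Cyp51, which removes a methyl group from lanosterol, came nearest at 15 mg/kg. It was at 164 ± 41.7 CPM with levodopa (SD, n = 5) and 134 ± 11 CPM at 15 mg/kg (SD, n = 10), which is -0.29 ± 0.11 on the log2 scale (edgeR adjusted p = 0.134). At 7.5 mg/kg the median was -0.06 with 13 of 14 negative, against 48.9% of all genes. Hsd17b7, a sterol ketone reductase, came nearest there at -0.28 ± 0.11 (edgeR adjusted p = 0.354). Acat2, the thiolase that makes acetoacetyl-CoA, came nearest between the doses at -0.22 ± 0.09 (edgeR adjusted p = 0.999).

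Genes of sterol sensing and SREBP control did not share one sign. Of 16 tested, 9 were negative at 15 mg/kg with a median of -0.01, against 49.8% of all genes. In this list 1 fell, against 1.00% of all genes. Mylip, a ubiquitin ligase under sterol control, was at 11.4 to 14.6 CPM with levodopa and at 7.06 to 10.9 CPM at 15 mg/kg, ranges that did not overlap, as for 0.410% of all genes in the lower direction. Its log2 fold change was -0.50 ± 0.10 (edgeR adjusted p = 0.0217; 10 of 10 libraries), and at 7.5 mg/kg -0.34 ± 0.10 (edgeR adjusted p = 0.208). The call ended when replicate 2 (-0.46) or 3 (-0.50) of levodopa alone was left out.

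Genes of sterol efflux, transport and turnover had a median of -0.12 at 15 mg/kg over 23 tested, 17 of them negative, against 49.8% of all genes. Of the 23, 1 fell, against 1.00% of all genes. Npc1, which exports cholesterol from the lysosome, was at 82.9 to 107 CPM with levodopa and at 59.3 to 79.4 CPM at 15 mg/kg. These ranges did not overlap, as for 0.410% of all genes in the lower direction. Its log2 fold change was -0.37 ± 0.09 (edgeR adjusted p = 0.0457). The call ended on leaving out replicate 1 (-0.38), 2 (-0.31) or 3 (-0.36) of levodopa alone, or replicate 1, 3, 6, 7, 8, 9 or 10 of the 15 mg/kg arm (-0.38 to -0.34). Between the doses Npc1 was also the nearest of its list, at -0.18 ± 0.08 (edgeR adjusted p = 0.999). At 7.5 mg/kg 0 passed with edgeR, against 0.0283% of all genes. Ch25h, which makes 25-hydroxycholesterol, came nearest there, at 3.07 ± 1.29 CPM for levodopa alone (SD, n = 5) against 1.53 ± 0.573 CPM (SD, n = 10). On the log2 scale this was -0.99 ± 0.24 (edgeR adjusted p = 0.135).

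Among genes of fatty acid synthesis the median at 15 mg/kg was -0.18 over 18 tested, 16 of them negative, against 49.8% of all genes. Of the 18, 1 fell, against 1.00% of all genes. Me1, the malic enzyme that supplies NADPH, was at 40.2 ± 8.01 CPM with levodopa (SD, n = 5) and 30.4 ± 2.92 CPM at 15 mg/kg (SD, n = 10), which is -0.40 ± 0.10 on the log2 scale (edgeR adjusted p = 0.0464). Its call ended on leaving out replicate 1 (-0.42), 2 (-0.29), 3 (-0.39) or 5 (-0.41) of levodopa alone, or replicate 1, 2, 3, 5, 6, 7, 9 or 10 of the 15 mg/kg arm (-0.41 to -0.38). Scd2, a desaturase, came nearest at 7.5 mg/kg (-0.27 ± 0.10; edgeR adjusted p = 0.339) and Acaca, acetyl-CoA carboxylase, between the doses (-0.12 ± 0.04; edgeR adjusted p = 0.999). The isoprenoid side branch, 10 genes of ubiquinone, prenylation and dolichol, had a median of 0.02 at 15 mg/kg with 4 negative, against 49.8% of all genes. With edgeR 0 passed, against 1.31% of all genes, and 1 was lower at an unadjusted p below 0.05, against 11.2%. Fnta, a subunit of the prenyl transferases, was that gene, at -0.30 ± 0.10 (edgeR adjusted p = 0.1), and Dhdds, of dolichol synthesis, came nearest at 7.5 mg/kg (0.12 ± 0.05; edgeR adjusted p = 0.371) and between the doses (-0.06 ± 0.04; edgeR adjusted p = 0.999).

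**Figure D3:**
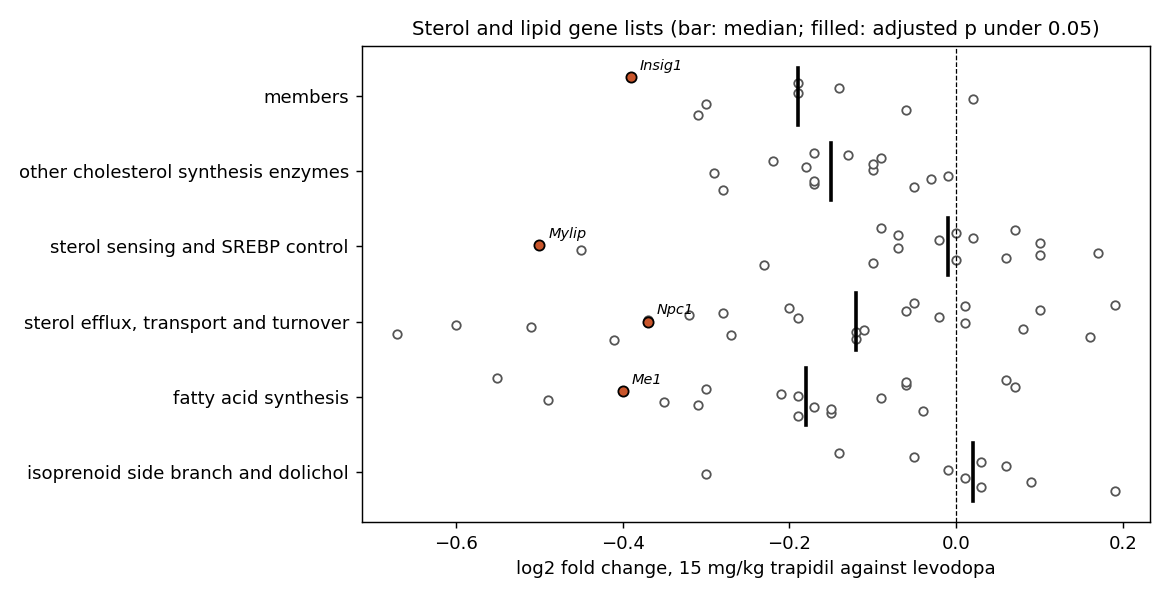
Log2 fold change at 15 mg/kg against levodopa (x axis) for each tested gene of 6 sterol and lipid lists (y axis); black bars are list medians and filled points have an edgeR adjusted p below 0.05. Medians are -0.19 for the 8 members and -0.15 for the other enzymes of the pathway, against 0.02 for the isoprenoid side branch, and Insig1, Mylip, Npc1 and Me1 are the filled points.

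Cell type markers were summed in the same arms. The 13 oligodendrocyte markers summed to 11000 to 20000 CPM with levodopa (median 13600), 7570 to 16800 CPM at 7.5 mg/kg (median 10300) and 6710 to 14100 CPM at 15 mg/kg (median 8680). All 13 had negative estimates at 15 mg/kg, with a median of -0.60, and all 13 were lower at an unadjusted p below 0.05. With edgeR 6 fell, among them Cnp, Opalin, Ermn, Mal and Ugt8, genes of myelin and its makers. The 11 astrocyte markers summed to 3670 to 7190 CPM, 3260 to 5160 CPM and 2930 to 4490 CPM in the same order, with medians of 3820, 3720 and 3760 CPM and levodopa replicate 2 at the top of its arm. Of these markers 11 of 11 were negative at 15 mg/kg with a median of -0.19 and 0 called by edgeR, 4 being lower at an unadjusted p below 0.05. Microglial markers (9 in the table) summed to 363 to 674 CPM, 333 to 587 CPM and 334 to 432 CPM, with medians of 411, 384 and 383 CPM. Endothelial markers (9 in the table) summed to 448 to 808 CPM, 372 to 541 CPM and 373 to 461 CPM (medians 469, 412 and 441), with Cldn5 listed at 0 in every library. The 9 markers of oligodendrocyte precursors summed to 529 to 862 CPM, 419 to 822 CPM and 410 to 624 CPM (medians 614, 502 and 492). Of these 1 fell at 15 mg/kg, Sox10 (-0.63; edgeR adjusted p = 0.0464), and 6 were lower at an unadjusted p below 0.05. Of 8 endothelial markers tested 1 fell there, Slco1a4 (-0.47; edgeR adjusted p = 0.0463), and 7 were lower at that unadjusted threshold. For microglia 0 of 9 were called by edgeR and 4 were lower at it. At 7.5 mg/kg the markers lower at it were 7 of 13 oligodendrocyte, 3 of 9 precursor, 7 of 8 endothelial and 0 astrocyte or microglial. None of these passed with edgeR there. Of all genes, 6.64% were lower at that threshold at 7.5 mg/kg and 11.2% at 15 mg/kg. With edgeR 0.0283% of all genes were called lower at 7.5 mg/kg and 1.00% at 15 mg/kg, and 49.8% had negative estimates at 15 mg/kg. The part of these cell types in the results on the members was not tested.

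Markers of tissue around the striatum were also summed. The 6 ependymal markers in the table summed to 2.39 to 53.0 CPM with levodopa, 2.89 to 77.9 CPM at 7.5 mg/kg and 24.3 to 65.4 CPM at 15 mg/kg. Their 15 mg/kg estimates were positive in 6 of 6 with a median of 1.29. With edgeR 0 passed, against 1.31% of all genes, while 4 were higher at an unadjusted p below 0.05, against 8.26%. The 6 choroid plexus markers summed to 0.551 to 28.1 CPM, 1.86 to 11.2 CPM and 3.18 to 10.9 CPM, with Otx2 listed at 0 in every library, and medians of 1.61, 5.07 and 6.18 CPM. The 28.1 CPM was levodopa replicate 2. Of the 4 tested, Ttr had a lower estimate at 15 mg/kg that passed (edgeR adjusted p = 0.0217). Its means were 4.86 CPM with levodopa and 0.128 CPM at 15 mg/kg. Still, 0 of 10 animals lay below the lowest levodopa animal, and no fit of Ttr without replicate 2 is given here. The other 3 had positive estimates that did not pass, 0.60 for Kl, 1.13 for Folr1 and 1.18 for Clic6. The 6 cortical neuron markers summed to 4.42 to 43.1 CPM, 2.57 to 55.7 CPM and 2.80 to 5.16 CPM. Of these Slc17a7 had a 15 mg/kg estimate of -1.78, which did not pass with edgeR (adjusted p = 0.16; unadjusted p = 0.0173). Levodopa replicate 2 had the highest level of its arm in 7 of 8 members and in 6 of 9 marker lists, those of oligodendrocytes, their precursors, astrocytes, microglia, endothelium and choroid plexus. The 7.5 mg/kg replicate 1 was the highest of its arm in 6 of 8 members and also in 6 of 9 lists, with the cortical list in place of the choroid plexus list. Without both animals the 15 mg/kg estimates were -0.33 for Insig1, -0.17 for Hmgcs1, -0.13 for Idi1 and -0.09 for Fdft1.

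Members were unevenly correlated among animals of the same arm. With the arm means removed, 25 of the 28 pairs had a positive Pearson r over 25 libraries, with a median of 0.38, and 4 pairs passed a two-sided permutation test after Benjamini-Hochberg adjustment over the 28 pairs. The 4 pairs joined Fdft1, Lss, Dhcr7 and Insig1. Fdft1 and Insig1 had r = 0.73 and rho = 0.77 (permutation p = 6e-05 and 5e-05; adjusted p = 0.00168 and 0.0014), and r = 0.64 without the 2 libraries farthest from the median of Fdft1. Within the 7.5 and 15 mg/kg arms alone r was 0.92 and 0.51. Lss and Dhcr7 had r = 0.69 and rho = 0.66 (permutation p = 0.00046 and 0.00088; adjusted p = 0.00429 and 0.00896), and r = 0.51 without the 2 farthest libraries.

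Dhcr7 and Insig1 had r = 0.69 and rho = 0.64 (permutation p = 0.00024 and 0.00096; adjusted p = 0.00336 and 0.00896), and r = 0.59 without the 2 farthest libraries. For Fdft1 and Dhcr7 r was 0.60 and rho 0.61 (permutation p = 0.00109 and 0.00218; adjusted p = 0.00763 and 0.0153), and r was 0.42 without the 2 farthest. With levodopa replicate 2 and the 7.5 mg/kg replicate 1 left out, 2 of the 28 pairs passed: Fdft1 with Insig1 (r = 0.64; adjusted p = 0.0395) and Lss with Dhcr7 (r = 0.60; adjusted p = 0.0456). Depth, tissue make-up and library are shared by the genes of a pair.

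Hmgcs1 and Idi1, of the mevalonate part, had r = 0.62 and rho = 0.53 (permutation p = 0.0121 and 0.0115), which did not pass (adjusted p = 0.0565 and 0.0644), and r = 0.37 without the 2 farthest libraries. In the 7.5 mg/kg arm their r was -0.02 and in the 15 mg/kg arm 0.79. Fdps had negative r with Hmgcs1 (r = -0.41, rho = -0.44; permutation p = 0.0529 and 0.0377; adjusted p = 0.133 and 0.106), and -0.38 without the 2 farthest libraries. With Idi1 it had r = -0.51 and rho = -0.47 (permutation p = 0.0114 and 0.028; adjusted p = 0.0565 and 0.098), and -0.43 without the 2 farthest. Neither passed. Against the mean of the other 7 members, r was 0.76 for Fdft1 and Dhcr7, 0.65 for Lss and Insig1, 0.42 for Hmgcs1, 0.40 for Sqle, 0.32 for Idi1 and 0.05 for Fdps, given as a description. By this r, among 12224 genes, Fdft1 ranked 19, Dhcr7 30, Insig1 231 and Lss 265. Hmgcs1 ranked only 2132, Sqle 2272, Idi1 3070 and Fdps 5406.

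**Figure D4:**
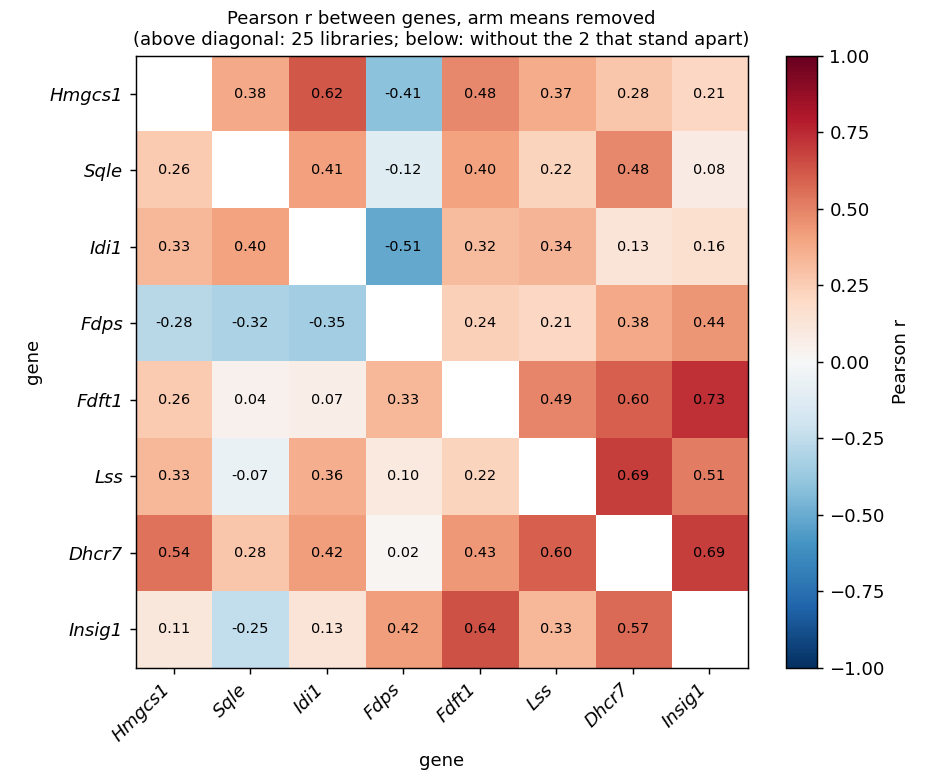
Pearson r between each pair of the 8 genes (both axes) across libraries with arm means removed, by colour from -1 to 1; above the diagonal are all 25 libraries, and below it the same without levodopa replicate 2 and the 7.5 mg/kg replicate 1. Fdft1 with Insig1 has the highest r on both sides (0.73 and 0.64), and Fdps has negative r with Hmgcs1 and Idi1 on both sides.

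The genes most like the mean of the 8 members across the 25 libraries, again with arm means removed and as a description, included other sterol and lipid genes. Of 12223 other named genes with a mean of at least 1 CPM, Cyp51 had the highest r, 0.88, and it was also the first without levodopa replicate 2 and the 7.5 mg/kg replicate 1 (r = 0.73). The fatty acid desaturase genes Fads2 (r = 0.82) and Fads1 (r = 0.80) were among the first 10 too. The other 7 were Plcd4, a phospholipase C (0.87), the matrix proteoglycan gene Bcan (0.84), the membrane protein gene Heg1 (0.84), Tgfb1 (0.84), Lsr, a lipoprotein receptor (0.82), Acsbg1, an acyl-CoA synthetase (0.81), and Tril (0.80). Without the 2 animals these 10 had r between 0.50 and 0.73. Cyp51, Plcd4 and Fads1 then ranked 1, 2 and 7, and the rest left the first 10. Their ranks ran from 27 for Bcan to 173 for Tril, with Fads2 at 146. Of the 10, Heg1 fell at 15 mg/kg, by -0.42 ± 0.09 on the log2 scale (edgeR adjusted p = 0.0298), a call that ended on leaving out replicate 2 (-0.26) or 3 (-0.42) of levodopa alone, or replicate 3 of the 15 mg/kg arm (-0.40). Srebf2, which encodes SREBP-2, had r = 0.05 with the members' mean.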

How the data were processed

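Polyadenylated RNA of 25 striatal samples was sequenced. Values are raw counts per gene symbol, in 1 table deposited by the authors. FastQC, STAR, HTSeq and the Rnor_6.0 build are named per the submitters' processing notes, with versions, annotation, strand setting and filters not given in the sources used here, so reads of overlapping or antisense genes cannot be told apart. Arms were read from the sample labels, with 1 library per animal by the design text. The labels name no batch or date. No pair of libraries within an arm agreed within sampling noise (lowest chi-square per degree of freedom 4.83).

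Genes were kept with edgeR's filterByExpr (14142, all 8 members among them), scaled by TMM and tested with edgeR 4.0.16's quasi-likelihood test (R 4.3.3) on all 25 libraries, two-sided. P-values were adjusted by Benjamini-Hochberg over every gene tested, and calls were made at 0.05. Standard errors divide the log2 fold change by the root of F. CPM uses the TMM factors; log2 CPM for correlations has a prior count of 2. Member pairs were permuted within arms 100000 times. Levels were compared within genes only, since gene lengths were not used. Alternatives used DESeq2 1.42.0, limma 3.58.1 (voom with quality weights), RLE scaling, no low-count filter, 2 arms only, a replicate block and left-out libraries. Those for Mylip, Npc1, Me1 and Heg1 were added after the data were seen. The steps were tested on simulated data.

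The members and gene lists were chosen with earlier results of these data known. Genes named are the 8 members, called genes of the lists, the gene with the smallest p per list and comparison, and the 10 genes most correlated with the members' mean. Srebf2 and the marker genes were named after their values were seen. Some genes that the rule names are not reported here.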

Additional observations from a re-analysis of the deposited data

Results flagged for a closer look

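Over the 8 genes and 3 arms, 24 groups were checked for a single library far from the rest of its arm, and 2 such values were found; chance gives about 1 in 20 groups. Fdft1 in levodopa replicate 2 was at 75.1 CPM, with the next highest levodopa animal at 59.4 CPM. Dhcr7 in the 7.5 mg/kg replicate 1 was at 31.6 CPM, with the next highest animal of that arm at 22.1 CPM.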

How the results depend on the processing

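Among 168 member estimates under settings other than leaving out 1 library, 165 kept their side of the threshold, 2 lost it (Insig1 at 15 mg/kg) and 1 gained it (Hmgcs1 at 15 mg/kg with DESeq2). The sign turned in 5 of the 168, all of them Fdps with values that passed no test, between -0.03 and 0.01, and in 3 of 400 estimates with 1 library left out. The count of genes called moved more. At 7.5 mg/kg the 4 genes became 7 with no low-count filter, 53 with DESeq2, 102 with limma-voom, 1 with only the 2 arms, 0 with the replicate block and 27 without levodopa replicate 2 and the 7.5 mg/kg replicate 1. At 15 mg/kg the 185 became 655 with DESeq2, 715 with limma-voom, 448 with only the 2 arms, 0 with the replicate block and 76 without those 2 libraries. Between the doses the 4 became 13 with limma-voom and 9 without the 2 libraries. The 1 member called at 15 mg/kg became 2 with DESeq2, 0 with the replicate block and 0 without the 2 libraries, and the 4 correlated pairs became 2 without them. Leaving out 1 library gave 1 to 70 genes at 7.5 mg/kg, 9 (without levodopa replicate 3) to 894 (without levodopa replicate 4) at 15 mg/kg and 4 to 8 between the doses, with 0 to 2 members called at 15 mg/kg and 0 in the other comparisons. With no low-count filter the calls of Npc1 (adjusted p = 0.0521) and Me1 (adjusted p = 0.0538) ended. Same-numbered animals did not deviate together (r from -0.24 to 0.16, -0.35 to 0.21 and -0.22 to 0.14 in the 3 comparisons), so the numbers were not taken as pairs. With the replicate block Insig1 at 15 mg/kg was -0.38 (adjusted p = 0.183), and the calls of Mylip (-0.45), Npc1 (-0.31), Me1 (-0.38) and Heg1 (-0.41) also ended. Without the 2 libraries those of Npc1 (-0.31) and Me1 (-0.29) ended. The cause of these moves was not tested.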
